A study of Mus musculus with 55 samples.

Results

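Of the 55 MARS-seq libraries of the study, 7 are compared here: the 3 titled Treg from peripheral bone marrow of mice at the late metastatic stage and the 4 titled Treg from marrow of normal mice, chosen by title alone. MARS-seq reads the ends of polyadenylated transcripts, and each library is a bulk measurement of cells that the labels give as sorted CD4+CD25+ regulatory T cells. The mice carried breast cancer metastases in bone. Peripheral marrow lies away from the metastatic core, and late samples of both sites came from 1 mouse each time; the cell line, strain, age and time after tumour inoculation are not stated in the sources used here. All 13 Treg libraries, which also hold 3 from early metastatic marrow and 3 from the late core, were fitted together. Nothing states that libraries of a group came from separate mice, so p-values here speak of variation among libraries.

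Regulatory T cells are CD4 T cells that restrain other immune cells. They are defined by the transcription factor FOXP3 and carry a high level of the interleukin-2 receptor chain CD25, the product of IL2RA. Bone marrow also holds resident macrophages, which engulf the nuclei of maturing red cells and ageing blood cells, break down their haem, return the iron to the circulation and clear lipid through lysosomes. Neutrophils and their precursors, plasma cells and erythroblasts are further large populations of the marrow.

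The reads went against the label. FOXP3 (ENSG00000049768 in the files; mouse gene at GRCm38 chromosome X, 7573644 to 7595245, plus strand) had 1, 1 and 4 reads in the 3 peripheral libraries, and 0, 1, 2 and 2 in the 4 normal ones. IL2RA had 3, 0 and 0 reads in peripheral libraries and 0, 1, 0 and 1 in normal libraries. IKZF2, a factor enriched in thymic regulatory T cells, had 2, 2 and 0 reads in peripheral libraries and 0, 0, 1 and 0 in normal ones. Each defining gene was thus at or near 0 in both groups, and none of the 3 had enough reads for a test. By contrast C1QA, a complement chain made by macrophages, stood at 8347, 7918 and 1865 CPM (recovered reads scaled to the same total in every library) in peripheral libraries and at 10055, 9007, 10110 and 9299 in normal libraries. S100A8, which neutrophils make in abundance as part of calprotectin, had 11191, 16093 and 4913 CPM in peripheral libraries, against 3561, 3387, 3965 and 5859 in normal libraries. The libraries are therefore called libraries labelled Treg, and each value below is of whatever cells they held. In such bulk libraries fewer cells of a type and less RNA per cell cannot be told apart.

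Several libraries stood apart within their group. The peripheral libraries held 217320, 140063 and 124365 recovered reads, and the normal libraries 254407, 429903, 285270 and 264534. Peripheral library 3 had the lowest macrophage and the highest T cell level of the 7 in CPM: its 22 macrophage markers summed to 5918 CPM, against 22150 and 19390 in the other peripheral libraries and 28030 to 32800 in normal libraries. Its T cell markers summed to 3482, against 625.8 and 514.1 in the other peripheral libraries and 1130 to 2051 in normal libraries. Transcripts of lung moved with the groups. Deposited values of 6 genes abundant in lung (INMT, MFAP4, MGP, SCGB1A1, SFTPC and SFTPD) summed to 78.9, 70.9 and 349.4 in peripheral libraries and to 2443, 1811, 47.1 and 1821 in normal libraries. Normal library 3 was thus the single normal library with little lung transcript, and results are given against it as well. Fits that take the lung value into account are given with the counts of called genes.

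**Figure D1:**
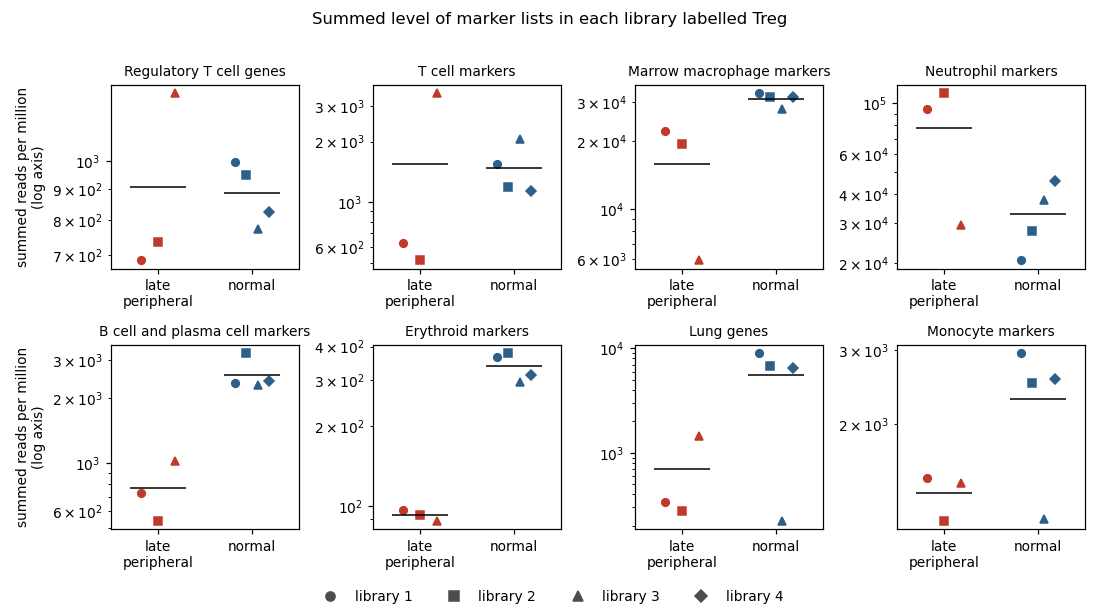
Summed CPM (log axis) of 8 marker lists in each library labelled Treg, with 3 late peripheral libraries in red on the left of each panel and 4 normal libraries in blue on the right; symbols give the library number and the line is the group mean. Macrophage, B and plasma cell and erythroid markers are lower in all 3 peripheral libraries than in all 4 normal ones, while peripheral library 3 and normal library 3 each stand apart in several panels.

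Late peripheral marrow differed from normal marrow mainly by genes that were lower. Of 4793 genes tested, 121 (2.52%) passed at an adjusted p under 0.05 with limma on log2(deposited value + 4). Of these, 108 (2.25%) were lower and 13 (0.271%) were higher in peripheral libraries, and 821 had an unadjusted p under 0.05. The median log2 fold change of all tested genes was -0.12, and fold changes below are not corrected for it. Of all tested genes 59.3% had a log2 fold change below 0. On the recovered reads edgeR with TMM called 16 higher and 59 lower, DESeq2 40 and 86, and limma-voom 8 and 24. Their medians of all genes were -0.03, -0.011 and -0.065. The bearing of the lower depth of peripheral libraries on direction was not tested. All 121 called genes had groups that did not overlap in CPM, where 12% of all tested genes lay lower and 4.36% higher without overlap.

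The number called depended on single libraries. Without peripheral library 2 the count was 20, all lower, and without normal library 1, 2 or 4 it was 32, 24 or 28. Without normal library 3 it was 187, and without peripheral library 3 it was 183, of which 59 were higher and 124 lower. With the summed lung value as a covariate 40 genes were called, 1 higher and 39 lower, and all 40 were among the 121. Against normal library 3 alone limma called 0 of 4392 genes, with 103 at an unadjusted p under 0.05, and that fit assumes the lone library varies like the other groups. The 12 leading genes that were lower kept their call in each of 13 fits that left out 1 library in turn. Among them HYAL2 could enter the test only as a gene high in normal libraries. The other 23 of 35 called named genes lost their call in at least 1 of these fits, 21 of them without peripheral library 2.

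**Figure D2:**
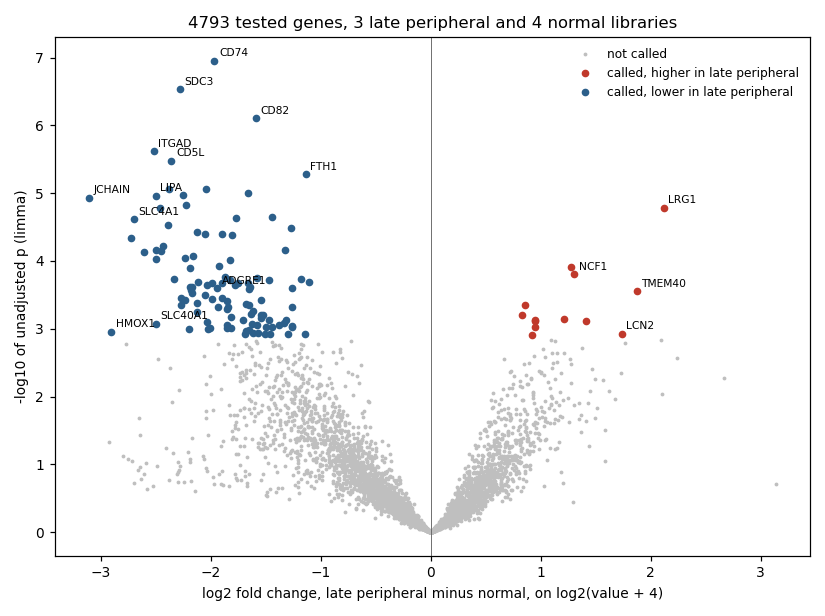
Each of 4793 tested genes by its log2 fold change, late peripheral minus normal, on the log2(value + 4) scale (x axis) and the -log10 of its unadjusted limma p (y axis). Called genes are coloured, and the 108 that were lower outnumber the 13 that were higher.

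Of 18 marrow macrophage markers tested, 6 were called, all lower, where 2.25% of all genes were called lower, and all 18 had a log2 fold change below 0, with a median of -1.83 against -0.12 for all genes. In 14 of the 18 all peripheral libraries lay below all normal libraries, as in 12% of all genes. The marker CD5L, a secreted scavenger protein of tissue macrophages (ENSG00000073754; chromosome 3, 87357881 to 87371073, plus strand), had 110.4, 57.1 and 88.4 CPM in peripheral libraries. In normal libraries it had 534.6, 516.4, 410.1 and 525.5. Every peripheral library was far below every normal one. The log2 fold change was -2.36 (SE 0.37, adjusted p = 0.003173), and it was -2.09 against normal library 3 alone and -2.02 with the lung covariate.

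SIGLEC1, the sialic acid receptor CD169 of macrophages ringed by erythroblasts, stood at 23.01, 14.3 and 56.3 CPM in peripheral libraries and at 133.6, 188.4, 136.7 and 249.5 in normal libraries. It was lower without overlap (log2 fold change -2.13, SE 0.40, adjusted p = 0.008328). ADGRE1, which encodes the macrophage antigen F4/80, stood at 64.4, 28.6 and 24.1 CPM in peripheral libraries, against 224.1, 246.6, 91.1 and 223.0 in normal libraries (log2 fold change -1.94, SE 0.44, adjusted p = 0.0213). Normal library 3 was the lowest of the normal libraries for ADGRE1 and yet lay above all peripheral ones. The other called markers were TIMD4, a phosphatidylserine receptor (-1.99), TREML4 (-2.43) and HPGD, which inactivates prostaglandins (-2.11). VCAM1, an adhesion molecule of marrow macrophages, did not pass: it had 814.5, 464.1 and 128.7 CPM in peripheral libraries and 1619, 1745, 490.8 and 1701 in normal libraries (-1.67, adjusted p = 0.3528). SPIC, the transcription factor of iron-recycling macrophages, did not pass either (-2.37, adjusted p = 0.09013). The count of 6 called markers was 3 with the lung covariate, 1 without peripheral library 2, and 3, 2 and 2 without normal libraries 1, 2 and 4. HPGD and TIMD4 lost their calls with edgeR and with limma-voom. TREML4 lost its call with edgeR under RLE scaling and with limma-voom, and ADGRE1 with limma-voom. MERTK had too few reads for a test, at 18.4, 0 and 0 CPM in peripheral libraries against 19.7, 51.2, 21.0 and 41.6 in normal libraries.

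The genes with the smallest p lay mostly outside that list. CD74, the invariant chain that guides MHC class II molecules, had the smallest p. Its level was 3870, 1614 and 2621 CPM in peripheral libraries, against 9595, 9951, 9310 and 12376 in normal libraries. The groups were well apart (log2 fold change -1.97, SE 0.24, adjusted p = 0.0005354). SDC3, a cell surface heparan sulphate proteoglycan (chromosome 4, 130792537 to 130826319, plus strand), had 243.9, 149.9 and 136.7 CPM in peripheral libraries and 758.6, 1049, 883.4 and 979.1 in normal libraries. It too was separated without overlap (-2.28, SE 0.30, adjusted p = 0.0007016). CD82, a tetraspanin, averaged 331 ± 71.2 CPM in peripheral libraries (SD, n = 3) and 1045 ± 139 in normal libraries (SD, n = 4), lower by the fit as well (log2 fold change -1.59, SE 0.22, adjusted p = 0.001255). ITGAD, the integrin alpha chain CD11d that is known from splenic red pulp macrophages, averaged 91.5 ± 60.2 CPM in peripheral libraries and 555 ± 101 in normal libraries (log2 fold change -2.52, SE 0.38, adjusted p = 0.002887).

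CRIP2, a LIM domain protein, was lower by a log2 fold change of -2.38. PLK3, a stress-responsive kinase, had 3 reads over all peripheral libraries and 85 over all normal libraries; per read sequenced its level was 11.1 times higher in normal libraries, with a 95% counting interval of 3.66 to 54.7. HYAL2, a hyaluronidase of the cell surface, had 3 reads in peripheral libraries and 97 in normal libraries, a ratio of 12.6 in favour of normal libraries (4.19 to 62.3). These intervals cover counting error only. HYAL2 reached the minimum for a test in normal libraries alone, so it could enter only as a gene high there.

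**Figure D3:**
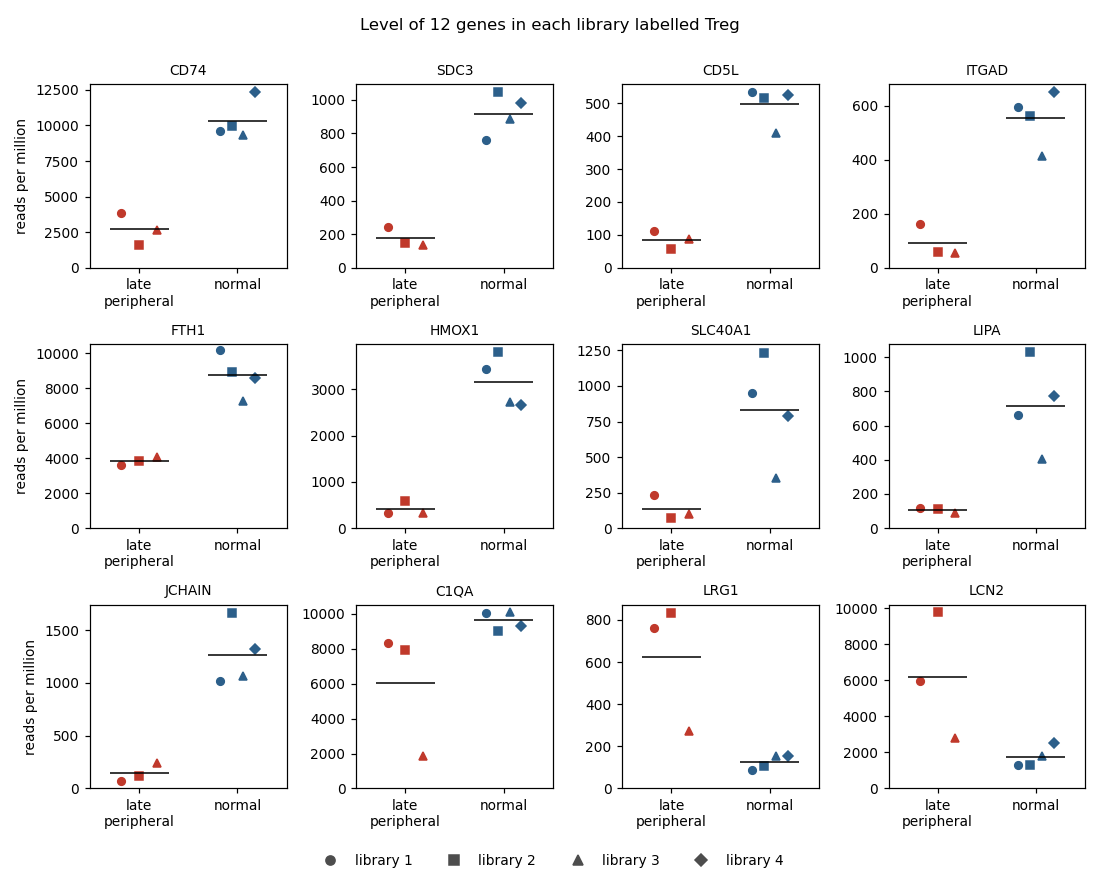
CPM of 12 genes in each library labelled Treg, with 3 late peripheral libraries in red on the left of each panel and 4 normal libraries in blue on the right; symbols give the library number, the line is the group mean and every axis starts at 0. The first 9 panels show groups without overlap and lower in peripheral libraries, C1QA is far lower in peripheral library 3 alone, and LRG1 and LCN2 are higher in peripheral libraries.

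The complement genes did not pass, although macrophages make them in large amounts. Of 12 complement genes tested 0 were called by limma, and 11 had a log2 fold change below 0, with a median of -1.40. edgeR, DESeq2 and limma-voom also called 0; 3 had an unadjusted p under 0.05, and without normal library 3 limma called 1. In 6 of the 12 all peripheral libraries lay below all normal ones, as in 12% of all genes, with C1QA, C1QB and C1QC among the 6. C1QA was lower in peripheral libraries by a log2 fold change of -0.91 with an SE of 0.92 (adjusted p = 0.6781). Its peripheral libraries 1 and 2, at 8347 and 7918 CPM, lay close below the lowest normal library at 9007. CFP, the complement regulator properdin, stood at 1390, 899.6 and 506.6 CPM in peripheral libraries and 2956, 2889, 2699 and 2733 in normal libraries, with no overlap, and did not pass (-1.66, SE 0.57, adjusted p = 0.175). It passed in 3 of the 28 alternatives: the 7 libraries alone, the replicate block and the fit without late core library 3. C3, the central complement component, had 303.7, 242.7 and 201.0 CPM in peripheral libraries and 1596, 1189, 227.9 and 1153 in normal libraries. Among normal libraries it was thus low in library 3 alone, as lung transcripts were. CFB, a protease of the alternative pathway, did the same, at 13.8, 0 and 16.1 in peripheral libraries, against 117.9, 116.3, 17.5 and 117.2 in normal libraries. In other libraries with little lung transcript CFB had 29.8 and 9.43 CPM (early 1 and 2) and 77.7 and 71.5 (late core 2 and 3). A link of either gene to lung transcript was not tested. The factor C2 did not pass (-1.60, adjusted p = 0.1712).

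Set against the C1Q reads of the same library, macrophage-associated genes differed unequally. This ratio was chosen after the values were seen, so it is given without a test. HMOX1 had 18.0, 36.0 and 72.5 reads per 1000 reads of C1QA, C1QB and C1QC in peripheral libraries and 150.6, 183.9, 124.6 and 123.5 in normal libraries. SDC3 had 13.9, 9.12 and 30.8 per 1000 in peripheral libraries, against 33.2, 50.8, 40.5 and 45.4 in normal libraries. APOE, the lipid carrier that macrophages secrete, ran the other way, with 1793, 1914 and 1043 per 1000 in peripheral libraries and 703.6, 715.4, 677.2 and 695.8 in normal libraries. For these 3 genes the groups did not overlap. The share of all tested genes without overlap on this ratio was not computed, so nothing is read from the count. In CPM that share was 16.4%. CD68 (58.1, 40.4 and 74.3 in peripheral libraries, 72.7, 80.8, 61.9 and 73.2 in normal libraries), CTSD, AXL, VCAM1 and SLC40A1 overlapped. So did CD5L (6.28, 3.47 and 19.9 in peripheral libraries, 23.4, 25.0, 18.8 and 24.4 in normal libraries) and LIPA, each through peripheral library 3 and normal library 3. Peripheral library 3 rests on 552 C1Q reads, against 3824 and 2304 in the other peripheral libraries and 5701 to 8884 in normal libraries.

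**Figure D4:**
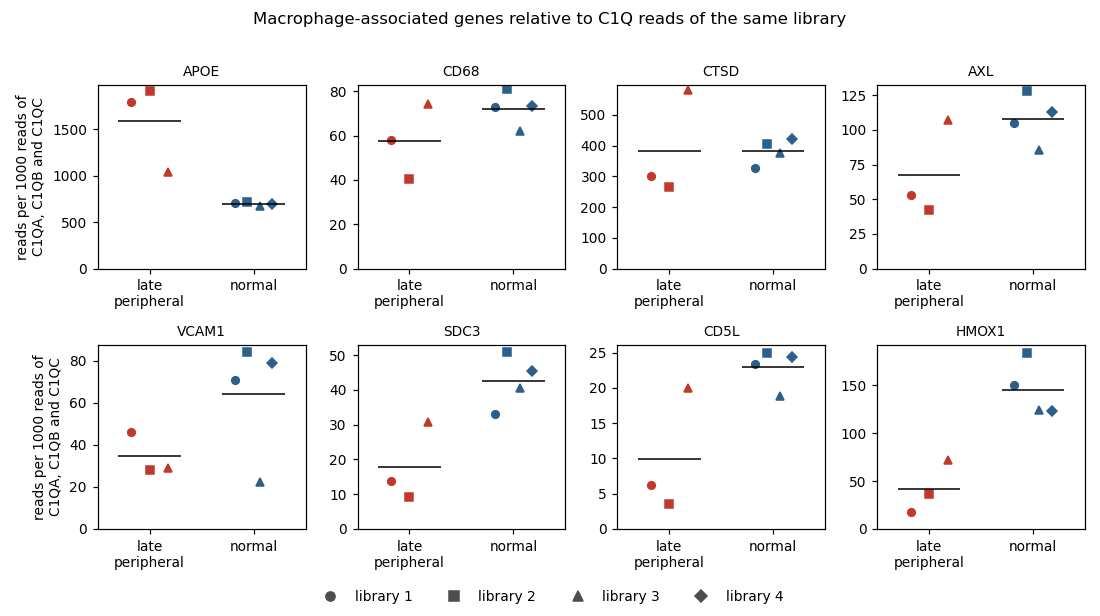
Reads of 8 macrophage-associated genes per 1000 reads of C1QA, C1QB and C1QC of the same library, with late peripheral libraries in red on the left and normal libraries in blue on the right; symbols give the library number and the line is the group mean. APOE is higher and HMOX1 and SDC3 are lower in all 3 peripheral libraries, whereas CD68, CTSD and AXL overlap.

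Of 16 genes of iron and haem handling tested, 3 were called, all lower, against 2.25% of all genes, and 15 were below 0, with a median of -1.21. In 9 of them all peripheral libraries lay below all normal ones, as in 12% of all genes. HMOX1, the haem oxygenase that frees iron from haem (ENSG00000100292; chromosome 8, 75093621 to 75100589, plus strand), had 317.5, 592.6 and 321.6 CPM in peripheral libraries. In normal libraries it had 3443, 3801, 2717 and 2661. Although no peripheral library came near a normal one, the spread of the 13 libraries put it just inside the threshold (log2 fold change -2.90, SE 0.65, adjusted p = 0.04752). Its call was lost in 11 of the 13 fits that left out 1 library, with adjusted p up to 0.151. The call was also lost with edgeR and with the lung covariate in limma (adjusted p = 0.08744). Its log2 fold change stayed between -3.24 and -2.39 across all settings.

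SLC40A1, the iron exporter ferroportin (chromosome 1, 45908068 to 45926523, minus strand), had 234.7, 71.4 and 96.5 CPM in peripheral libraries. It had 951.2, 1235, 350.5 and 786.3 in normal libraries, so that normal library 3 was closest to the peripheral ones (log2 fold change -2.50, SE 0.57, adjusted p = 0.04232). Its call was lost in 8 of the 13 fits that left out 1 library, with edgeR and with limma-voom. FTH1, the heavy chain of the iron store ferritin (chromosome 19, 9980598 to 9985098, plus strand), was the most even of the 3. It stood at 3598, 3841 and 4077 CPM in peripheral libraries and 10173, 8932, 7277 and 8558 in normal libraries (-1.14, SE 0.18, adjusted p = 0.004222). BLVRA, a biliverdin reductase that acts after HMOX1, was at 96.6, 128.5 and 56.3 CPM in peripheral libraries, against 212.3, 276.8, 168.3 and 264.6 in normal libraries, and missed the threshold (-1.18, adjusted p = 0.07447). TFRC, the transferrin receptor that takes iron up, was the single member above 0 (0.72, adjusted p = 0.4567). The count of 3 was 2 with the lung covariate and 1 without peripheral library 2, without peripheral library 3 or without normal library 1, 2 or 4.

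Of 26 lysosomal genes 2 were called, both lower, a share of 7.69% against 2.25% of all genes. In all, 24 were below 0 (median -0.68), as were 59.3% of all genes. LIPA, the acid lipase that splits cholesteryl esters in lysosomes, had 115.0, 114.2 and 88.4 CPM in peripheral libraries and 660.4, 1028, 403.1 and 771.2 in normal libraries. The peripheral libraries agreed closely and lay well below the lowest normal one (-2.50, SE 0.41, adjusted p = 0.004677). HEXA, a subunit of beta-hexosaminidase, stood at 874.3, 542.6 and 651.3 in peripheral libraries and at 1844, 1610, 1644 and 1682 in normal libraries (-1.27, SE 0.24, adjusted p = 0.007704). CTSD, the main lysosomal aspartic protease, did not pass (-1.03, adjusted p = 0.09726), nor did NAGLU (-1.56, adjusted p = 0.08439).

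Of 15 lipid and cholesterol genes 12 were below 0 (median -0.56), as were 59.3% of all genes. The 3 called were all lower, a share of 20% against 2.25% of all genes. Besides LIPA these were LPL, lipoprotein lipase, and PPARG, a nuclear receptor of lipid metabolism. LPL had 9.20, 7.14 and 8.04 CPM in peripheral libraries and 98.3, 248.9, 38.6 and 155.0 in normal libraries (-2.50, SE 0.50, adjusted p = 0.01179). PPARG had 69.0, 0 and 24.1 in peripheral libraries and 231.9, 248.9, 147.2 and 196.6 in normal libraries (-2.60, SE 0.51, adjusted p = 0.01193). Both are also expressed by alveolar macrophages, and both were lowest in normal library 3 among normal libraries. With the lung covariate in limma both kept their call, LPL at -1.89 (adjusted p = 0.0353) and PPARG at -2.32 (adjusted p = 0.04539). A part of alveolar macrophages in either difference was not tested. APOE was not lower: it had 31548, 31479 and 4632 CPM in peripheral libraries, on either side of 16084, 14785, 14765 and 14996 in normal libraries (0.17, SE 1.13, adjusted p = 0.963); without peripheral library 1 or 2 the value was -0.29 or -0.34. NR1H3, the oxysterol receptor, did not pass (-1.37, adjusted p = 0.1763). Of 18 phagocytic and scavenger receptors 2 were called lower, against 2.25% of all genes: TIMD4 and STAB2, a scavenger receptor for hyaluronan (-1.85, SE 0.43, adjusted p = 0.02792). Of the 18, 12 were below 0 (median -1.17), as were 59.3% of all genes. AXL, a receptor for dying cells, stood at 934.1, 692.5 and 474.4 CPM in peripheral libraries and 2398, 2647, 1858 and 2438 in normal libraries and did not pass (-1.72, SE 0.49, adjusted p = 0.09658).

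**Figure D5:**
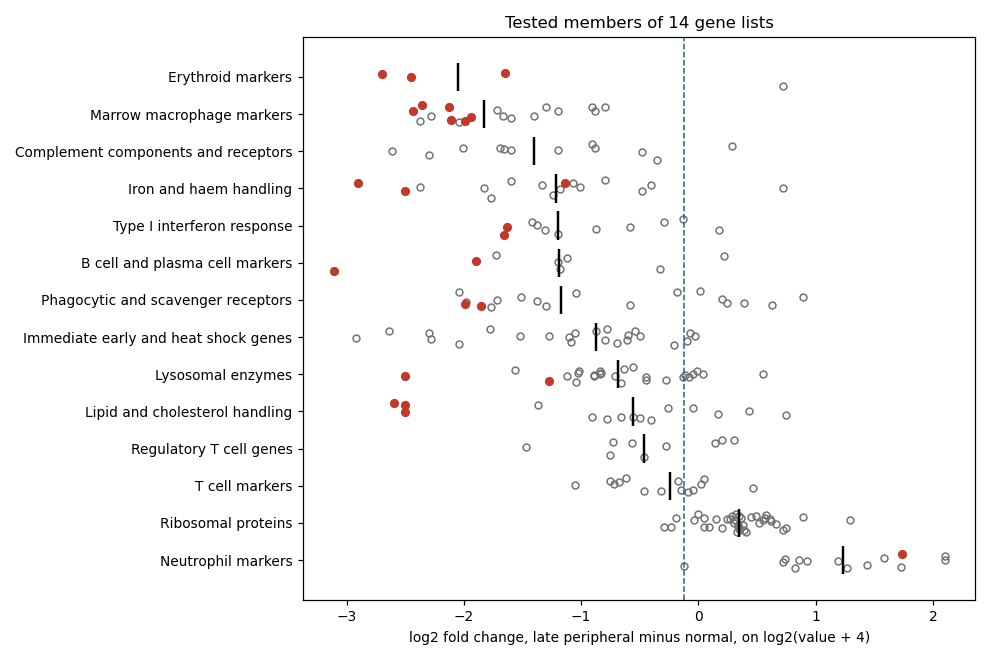
Log2 fold change, late peripheral minus normal, on the log2(value + 4) scale for each tested member of 14 gene lists (x axis; lists down the page). Filled red points are called members, open points are not called, black ticks are list medians and the dashed line is the median of all tested genes at -0.12; macrophage and erythroid medians lie lowest and the neutrophil median highest.

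Some plasma cell and erythroid genes were called lower. JCHAIN, which joins polymeric immunoglobulins (chromosome 5, 88519809 to 88527891, minus strand), had the most negative log2 fold change of the called genes. It stood at 73.6, 114.2 and 241.2 CPM in peripheral libraries and at 1018, 1661, 1062 and 1316 in normal libraries (-3.11, SE 0.48, adjusted p = 0.004677). MZB1, a chaperone of antibody secretion, was at 69.0, 28.6 and 176.9 in peripheral libraries and 220.1, 409.4, 504.8 and 226.8 in normal libraries (-1.90, SE 0.43, adjusted p = 0.02629). JCHAIN and MZB1 were the 2 called among 8 tested B and plasma cell markers, a share of 25% against 2.25% of all genes. Of the 8, 7 were below 0 (median -1.19), as were 59.3% of all genes. MZB1 lost its call with edgeR and with limma-voom. CD79B, a chain of the B cell receptor, did not pass (-1.18, adjusted p = 0.06522). TNFRSF17, the plasma cell receptor BCMA, had 1 read in peripheral libraries and 56 in normal libraries and did not pass (adjusted p = 0.1021). POU2AF1, IRF4 and TXNDC5, further genes of antibody-secreting cells named after their values were seen, were called lower at -2.17, -1.68 and -1.75. TNFRSF17 and POU2AF1 reached the minimum for a test in normal libraries alone, so they could enter only as genes high there. The summed B and plasma cell markers were 542.6 to 1021 CPM in peripheral libraries and 2307 to 3212 in normal libraries.

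Of 10 erythroid markers measured 4 had enough reads for a test. Of these, 3 were called, all lower, where 2.25% of all genes were called lower. The remaining tested marker, TFRC, was above 0 (0.72) and did not pass. Against normal library 3 alone SLC4A1 and ALAS2 could not be tested, EPOR stood at -1.32 and the list median was 0.14. SLC4A1, the anion exchanger band 3 of red cells, had 0 reads in all 3 peripheral libraries and 103 in the 4 normal libraries. It reached the minimum for a test in normal libraries alone, so it could enter only as a gene high there. Taking 3 reads for the whole group as the floor, it was at least 13.4-fold lower in peripheral libraries. ALAS2, the first enzyme of haem synthesis in erythroblasts, had 36.8, 0 and 0 CPM in peripheral libraries and 133.6, 123.3, 73.6 and 102.1 in normal libraries (-2.45, SE 0.49, adjusted p = 0.01193). EPOR, the erythropoietin receptor, was at 13.8, 14.3 and 32.2 in peripheral libraries and 102.2, 83.7, 70.1 and 117.2 in normal libraries (-1.65, SE 0.37, adjusted p = 0.02162). Summed erythroid markers ranged from 88.5 to 96.6 CPM in peripheral libraries and from 294.5 to 376.8 in normal libraries, as macrophage sums did; their part in each other's difference was not tested. The 3 calls were 2 with the lung covariate, 1 without peripheral library 2 and 1, 0 and 1 without normal libraries 1, 2 and 4.

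Genes higher in peripheral libraries included products of neutrophils. LRG1, a secreted glycoprotein stored in neutrophil granules (ENSG00000171236; chromosome 17, 56119678 to 56122001, minus strand), had 763.9, 835.3 and 273.4 CPM in peripheral libraries. Normal libraries had 86.5, 104.7, 154.2 and 155.0. All peripheral libraries lay above all normal ones, library 3 least so (2.12, SE 0.36, adjusted p = 0.005274). LCN2, the siderophore-binding granule protein lipocalin 2 (chromosome 2, 32384633 to 32388252, minus strand), had 5977, 9774 and 2798 CPM in peripheral libraries and 1321, 1303, 1826 and 2510 in normal libraries, so that the groups nearly met (1.74, SE 0.42, adjusted p = 0.04854). Its call was lost in 10 of the 13 fits that left out 1 library. ALOX5AP, which presents arachidonic acid for leukotriene synthesis, was at 635.0, 913.9 and 546.8 in peripheral libraries and 243.7, 251.2, 375.1 and 272.2 in normal libraries (1.28, SE 0.27, adjusted p = 0.0163). NCF1, a subunit of the phagocyte NADPH oxidase, was at 685.6, 678.3 and 578.9 in peripheral libraries and 153.3, 258.2, 378.6 and 302.4 in normal libraries (1.305, SE 0.28, adjusted p = 0.01996).

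Of 14 neutrophil markers tested 1, LCN2, was called higher, a share of 7.14% against 0.271% of all genes. Of the 14, 13 were above 0, with a median of 1.23 against -0.12 for all genes. The summed markers were 29410, 93750 and 110400 CPM in peripheral libraries in rising order, the lowest of them library 3, and 20630 to 45620 in normal libraries, so these groups overlapped. MMP9, a gelatinase granule protease, had 184.1, 357.0 and 152.8 CPM in peripheral libraries and 27.5, 51.2, 91.1 and 18.9 in normal libraries and missed the threshold (2.10, adjusted p = 0.05665). S100A8 (1.27, adjusted p = 0.07676), CD177 (1.73, adjusted p = 0.09658), S100A9 (1.44, adjusted p = 0.2965) and CAMP (0.74, adjusted p = 0.5818) did not pass. Without peripheral library 3 the number of neutrophil markers called was 4, and with the lung covariate it was 0. With edgeR it was 4, with DESeq2 it was 5, and it was 0 without peripheral library 1 or 2 or normal library 1, 2 or 4. The part of neutrophil content in the genes that were higher was not tested.

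The remaining leading genes that were higher were TMEM40 at 115.0, 107.1 and 48.2 CPM in peripheral libraries against 3.93, 13.96, 21.0 and 18.9 in normal libraries (1.87, adjusted p = 0.02254), NHP2, a component of telomerase and of the small nucleolar particles that modify ribosomal RNA (1.22, adjusted p = 0.03985), and SMN1, needed for assembly of splicing particles (1.41, adjusted p = 0.03996). Of the 13 fits that left out 1 library, NHP2 and SMN1 each lost their call in 8, TMEM40 in 5, ALOX5AP and NCF1 each in 4 and LRG1 in 1, the fit without peripheral library 2. The other 6 called, named after their values were seen, were below 1 on the log2 scale: MAPKAPK2 at 0.86, CORO1A, an actin-binding protein of leukocytes, at 0.84, ARHGDIB at 0.95, RPL28 at 0.95, the glycolytic enzyme PKM at 0.94 and PSTPIP1 at 0.92. Of 38 ribosomal protein genes on the list 0 were called by limma, and 34 were above 0 with a median of 0.35. edgeR, DESeq2 and limma-voom also called 0, and 12 had an unadjusted p under 0.05. Without normal library 3 limma called 9, and without peripheral library 3 it called 1. RPS14 had 7215, 8518 and 10204 CPM in peripheral libraries and 3946, 4087, 7340 and 4219 in normal libraries (0.89, adjusted p = 0.0824). Normal library 3 overlapped the peripheral ones, and it did so too for RPL41, RPLP2 and RPS15 (0.72, 0.75 and 0.66).

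The promoters of CD5L and LIPA, picked among genes that were lower, and of LRG1 and LCN2, picked among genes that were higher, are shown. They are the 250 bases before the transcription start in RefSeq (GRCm38.p6), written 5′ to 3′ on the strand of the gene, with CD5L at chr3:87357631-87357880 (plus strand), LIPA at chr19:34527475-34527724, LRG1 at chr17:56121947-56122196 and LCN2 at chr2:32387740-32387989 (all minus strand). Capitals mark matches, on either strand, to GAGGAA, the core bound by ETS factors and PU.1, or to TGACNNNGC, the antioxidant response element.
CD5L: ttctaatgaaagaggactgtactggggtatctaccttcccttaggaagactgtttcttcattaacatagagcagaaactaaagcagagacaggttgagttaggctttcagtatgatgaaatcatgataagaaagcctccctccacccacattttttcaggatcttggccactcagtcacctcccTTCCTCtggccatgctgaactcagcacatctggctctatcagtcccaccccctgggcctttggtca
LIPA: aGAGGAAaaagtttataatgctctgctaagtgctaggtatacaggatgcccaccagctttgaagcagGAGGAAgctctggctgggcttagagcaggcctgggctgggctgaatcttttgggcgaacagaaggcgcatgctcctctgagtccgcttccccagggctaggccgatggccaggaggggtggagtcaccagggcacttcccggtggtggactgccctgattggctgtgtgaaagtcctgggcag
LRG1: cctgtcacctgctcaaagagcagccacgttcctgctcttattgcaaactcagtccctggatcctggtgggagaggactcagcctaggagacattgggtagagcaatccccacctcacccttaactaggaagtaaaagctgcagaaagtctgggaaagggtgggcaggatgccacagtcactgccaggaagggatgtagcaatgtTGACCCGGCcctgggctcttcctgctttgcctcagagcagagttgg
LCN2: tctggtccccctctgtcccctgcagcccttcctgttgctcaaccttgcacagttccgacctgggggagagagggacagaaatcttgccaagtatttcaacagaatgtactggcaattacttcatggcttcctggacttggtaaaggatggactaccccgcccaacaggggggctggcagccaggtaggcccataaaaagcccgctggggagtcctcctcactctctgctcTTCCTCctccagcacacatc
The GAGGAA core was in 23.3% of all 32851 promoter windows of this length and in 10 of the 33 windows of the called named genes, of which 24 of 35 matched. TGACNNNGC was in 10.2% of all windows and in 7 of the 33. The AP-1 site TGAGTCA was in 4.46% of all windows and in 1 of the 33, and the E-box CACGTG in 6.02% and 0 of the 33. The promoters of SDC3, FTH1, CRIP2 and PLK3, which are not shown, held none of these motifs. All matches are of letters and show no binding.

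Interferon-response genes held 2 called members of 11, both lower, a share of 18.2% against 2.25% of all genes. Of the 11, 10 were below 0 (median -1.20), as were 59.3% of all genes. IRF7, the factor that amplifies interferon production, stood at 73.6, 42.8 and 80.4 CPM in peripheral libraries and 224.1, 211.7, 210.3 and 313.8 in normal libraries (-1.66, SE 0.28, adjusted p = 0.004677). IRF9 (-1.20, adjusted p = 0.07069) and ISG20 (-1.38, adjusted p = 0.1231) did not pass. The count of 2 was 1 with the lung covariate and without peripheral library 2 or normal library 1, 2 or 4.

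T cell genes did not pass in either direction. Of 14 T cell markers 0 were called by limma, with 11 below 0 and a median of -0.24, and of 9 regulatory T cell genes 0 were called, with 6 below 0 and a median of -0.46. edgeR, DESeq2 and limma-voom also called 0 in both lists, and 0 and 1 members had an unadjusted p under 0.05. Without peripheral library 3 limma called 1 in each list, TNFRSF18 among the regulatory T cell genes. CD3E, part of the CD3 complex, had 41.4, 7.14 and 120.6 CPM in peripheral libraries and 51.1, 30.2, 59.6 and 34.0 in normal libraries (-0.05, SE 0.49, adjusted p = 0.9728). With edgeR or DESeq2 scaling the values of CD3E and CD3D were slightly above 0. CD4 had 110.4, 99.95 and 209.1 in peripheral libraries and 243.7, 230.3, 175.3 and 223.0 in normal libraries (-0.62, adjusted p = 0.3202). CTLA4, an inhibitory receptor carried by regulatory T cells, had 0, 1 and 6 reads in peripheral libraries and 8, 15, 9 and 6 in normal libraries (-0.73, adjusted p = 0.432). TNFRSF18 and TNFRSF4, the costimulatory receptors GITR and OX40, had log2 fold changes of -0.75 and 0.20, and LAG3 of 0.76. TIGIT and ICOS had too few reads for a test, TIGIT with 3 reads in peripheral libraries and 5 in normal libraries. PDCD1, which encodes PD-1, had 0 reads in all 3 peripheral libraries and 56 in normal libraries, at least 7.29-fold lower with the same floor. It did not pass (adjusted p = 0.07676), and among normal libraries it stood at 3.51 CPM in library 3 and 41.6 to 66.8 in the others. At these depths a difference in FOXP3 or IL2RA was not detectable.

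Immediate early and heat shock genes, which respond to handling and stress of cells, had 23 of 23 members below 0 with a median of -0.87, and limma, edgeR, DESeq2 and limma-voom each called 0, with 4 at an unadjusted p under 0.05. Without normal library 3 limma called 2, and without peripheral library 3 it called 1. Those named were low in normal library 3, as lung transcripts were. HSPA1A, a heat shock chaperone, had 46.0, 35.7 and 104.5 CPM in peripheral libraries and 1046, 867.6, 91.1 and 895.9 in normal libraries (-2.92, adjusted p = 0.284), and ATF3 had 9.20, 0 and 64.3 in peripheral libraries against 326.2, 255.9, 35.1 and 238.2 in normal libraries. For both, normal library 3 lay within the peripheral range. The list median was 0.23 against normal library 3 alone, where that of the macrophage markers was -1.09.

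Across the stages several of the genes that were lower took intermediate values at the early stage. These groups share the normal libraries, so the values are a description. CD5L averaged 497 ± 58.1 CPM in normal libraries, 217 ± 35.9 in early libraries, 85.3 ± 26.8 in late peripheral libraries and 32.8 ± 36.8 in late core libraries. CD74 averaged 10308 ± 1404, 7004 ± 1282, 2702 ± 1130 and 3475 ± 505 in the same order. HMOX1 was already low early, at 3156 ± 559, 463 ± 105, 411 ± 158 and 286 ± 300, and so was JCHAIN at 1264 ± 295, 102 ± 73.5, 143 ± 87.4 and 105 ± 64.0. LRG1 was at 125 ± 34.9, 861 ± 293, 624 ± 306 and 464 ± 68.8, and LCN2 at 1740 ± 567.9, 7674 ± 1455, 6183 ± 3493 and 2508 ± 847 (SD, n = 4 normal and 3 of each other group).

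The same contrast was set against the granulocyte and CD4 libraries of the study, each with 4 late peripheral and 4 normal libraries. For granulocytes the difference of the peripheral minus normal effects passed for 164 of 5429 genes (3.02%), 53 (0.976%) with a more positive effect in Treg-labelled libraries and 111 (2.04%) with a more negative one. The count was 94, 89 and 98 without Treg normal library 1 or 2 or peripheral library 2, and 277 without peripheral library 3. In granulocytes themselves 310 of 3808 genes (8.14%) were called, 146 (3.83%) higher and 164 (4.31%) lower in late peripheral libraries. HMOX1 had a log2 fold change of -2.90 in Treg-labelled libraries and 0.05 in granulocytes, and the difference of -2.96 passed (SE 0.62, adjusted p = 0.008707). FTH1 had -1.14 in Treg-labelled libraries and 0.25 in granulocytes (difference -1.38, adjusted p = 0.007368). LCN2 had 1.74 in Treg-labelled libraries and -0.47 in granulocytes (difference 2.21, adjusted p = 0.007852), and NCF1 had 1.305 in Treg-labelled libraries and -0.47 in granulocytes (difference 1.78, adjusted p = 0.01824). CAMP, a granule antimicrobial peptide, had 0.74 in Treg-labelled libraries and -1.72 in granulocytes (difference 2.46, adjusted p = 0.02376).

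Other genes moved in both populations, and their differences did not pass. CD74 had -1.97 in Treg-labelled libraries and -1.58 in granulocytes, where it was also called (adjusted p = 0.02217); the difference was -0.39 with an SE of 0.51. In granulocytes its level was 33.8 ± 24.2 CPM in late peripheral libraries and 95.4 ± 27.9 in normal libraries. IRF7 had -1.66 in Treg-labelled libraries and -1.51 in granulocytes (adjusted p = 0.04544 there), with a difference of -0.14 (SE 0.53). ALOX5AP had 1.28 in Treg-labelled libraries and 1.13 in granulocytes (adjusted p = 0.0005837 there), with a difference of 0.14 (SE 0.31). LRG1 had 2.12 in Treg-labelled libraries and 0.96 in granulocytes (adjusted p = 0.02312 there), and the difference of 1.16 did not pass (adjusted p = 0.1516). Macrophage, plasma cell and erythroid genes such as CD5L, SDC3, JCHAIN and SLC4A1 had too few reads in granulocytes for a test there, so their differences restate the contrast in Treg-labelled libraries: CD5L had 0.154 CPM in late peripheral and 0.82 in normal granulocytes.

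For CD4 libraries limma called 0 of 5390 differences, with 542 at an unadjusted p under 0.05, and limma-voom also called 0. Fitted on peripheral and normal libraries alone it was 58, and without peripheral library 1 or 3 or normal library 3 it was 48, 15 or 30. The differences nearest to the threshold were for CD82 (-1.50), JCHAIN (-3.35), LPL (-2.83) and SLC4A1 (-2.40), each at an adjusted p of 0.05369. LPL and SLC4A1 had too few reads for a test in CD4 libraries, so their differences rest on the Treg-labelled libraries. CD5L stood at 40.5 ± 28.5 CPM in late peripheral CD4 libraries and 10.96 ± 10.6 in normal ones, opposite in sign to the Treg-labelled libraries, and the difference of -3.38 did not pass (SE 0.84, adjusted p = 0.06992).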

How the data were processed

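Libraries were grouped by their titles. Per the submitters' processing notes, reads were handled with fastp 0.20.0, STAR 2.6.0c and DESeq2 1.30.1 on GRCm38 (mm10). The sources used here do not state how genes were counted or molecular tags used. Per library the authors deposited a signal that is read numbers scaled by 1 factor; undoing that factor gave whole reads (within 0.01) for 100% of values. Symbols are written as human ones with human Ensembl identifiers, yet 15695 of 15728 match a capitalised mouse symbol, and coordinates are of the GENCODE M21 mouse gene of that name. Features with no symbol, 5 a file, were left out (at most 0.0123% of a Treg library).

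limma 3.58.1 (R 4.3.3; trend, robust) was fitted to log2(value + 4) of all 13 Treg libraries, keeping genes that reached a value of 10 in 3 or more libraries. A gene could pass this minimum through the normal libraries alone, and such a gene entered as one high there. Among the called named genes HYAL2, SLC4A1, TREML4, LPL and ALAS2 did not reach the minimum once normal libraries 1, 2 and 4 were left out. Fold changes on the log2(value + 4) scale understate the change of low genes. Standard errors and Benjamini-Hochberg adjusted p-values come from that fit. Levels (CPM) are recovered reads scaled to 1 common library total, and their depth is given with the libraries. A count test (edgeR 4.0.16, DESeq2 1.42.0) was run on the recovered reads as an alternative: edgeR called 75 genes and DESeq2 126. Differences between populations were tested in 1 limma model over both. The procedure was also run on simulated data. There all genes shared a fixed spread and no library stood apart, so it does not speak to the dependence on single libraries.

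The members and lists were chosen with earlier results of these data known. Named genes were, in each direction, up to 12 of the smallest p with adjusted p under 0.05, a log2 fold change of at least 1 in size and 20 CPM in the higher group; of each of 13 described lists up to 4 members of the smallest p with 20 CPM in the higher group; and fixed lineage, checkpoint and macrophage genes. Alternatives, 28 in all, included other pseudocounts (1, 16), filters, scalings and tests, a replicate block and each library left out in turn; 3 were added after the data were seen. The values of 1 called gene are not reported here.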

Additional observations from a re-analysis of the deposited data

Results flagged for a closer look

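In groups of 4 normal libraries, 10 of 87 named genes had 1 library far from the other 3. The genes share these libraries and many were chosen by their p, so the share is not set against chance. Normal library 3, which has little lung transcript, stood apart for 8 of them: CD5L (410.1 CPM), CFB (17.5), VCAM1 (490.8), ADGRE1 (91.1) and IKZF2 (3.51), and, above the others, RPS14 (7340), RPL41 (8105) and RPLP2 (5949). The IKZF2 value is 1 read. Normal library 4 stood apart for IRF7 (313.8) and TNFRSF17 (15.1).

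The difference between the peripheral minus normal effects of Treg-labelled and granulocyte libraries passed (limma, adjusted p under 0.05) for 26 of 81 named genes, against 3.02% of all genes; many of the 81 were chosen by their p in the Treg-labelled contrast that enters the difference, so nothing is read from this share. Of the 26, 10 could be tested in granulocytes themselves. Their difference, Treg-labelled minus granulocyte on the log2 scale, was -2.96 for HMOX1, -1.38 for FTH1 and -1.73 for LIPA, and 1.78 for NCF1, 1.67 for TMEM40, 1.37 for SMN1, 2.21 for LCN2, 2.21 for MMP9, 1.80 for S100A8 and 2.46 for CAMP. The other 16 had too few reads in granulocytes for a test there, entered through the Treg-labelled libraries, and their differences restate that contrast: SDC3 (-1.93), ITGAD (-2.37), CD5L (-2.24), SIGLEC1 (-2.13), HPGD (-1.85), TIMD4 (-1.99), STAB2 (-1.67), ADGRE1 (-1.81), LPL (-2.39), PPARG (-2.59), HYAL2 (-1.78), JCHAIN (-2.93), TNFRSF17 (-1.73), SLC4A1 (-2.42), ALAS2 (-1.97) and EPOR (-1.52).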

How the results depend on the processing

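Against 121 genes called, the count was 46 with a pseudocount of 1, 56 with a value minimum of 20, 186 with the 7 peripheral and normal libraries alone, 75 with edgeR and TMM, 68 with edgeR and RLE, 32 with limma-voom, 40 with the lung covariate, 0 against normal library 3 alone and 4 (all higher) with peripheral libraries 1 and 2 against normal library 3, a fit added after the data were seen; leaving out 1 library in turn gave 20 to 187. DESeq2 called 126, of which 40 (against 13) were higher. The planned form of that last fit asked for at least 2 libraries of little lung transcript per group and was not run, since 1 normal library remained. With the replicate block, 138 were called, 105 of them among the 121. Same-numbered peripheral and normal libraries did not deviate together (correlations -0.0653, -0.0674 and -0.0592). Late peripheral and core samples came from 1 mouse each time, but pairing of those libraries was not examined. The main fit treats all 13 libraries as independent.

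The differences from CD4 libraries, 0 called, became 11 with no value minimum and 58 on peripheral and normal libraries alone, and 0 to 48 with 1 library left out. The differences from granulocytes, 164, became 86 with a pseudocount of 1, 60 with limma-voom (39 more positive and 21 more negative), 328 on peripheral and normal libraries alone and 89 to 277 with 1 library left out.

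For the 35 called named genes every setting kept the sign, and 246 of 967 values no longer passed. Among those that lost their call with limma-voom were CRIP2, PLK3, HYAL2, LPL, PPARG, STAB2, ALAS2, EPOR and NHP2. Among 46 named genes that were not called, 70 of 1268 values passed, among them 9 for MMP9, 7 for S100A8 and 6 each for AXL and CD177; the sign turned in 24, none of which passed, and the cause was not tested. CD3E gave 0.05 with a pseudocount of 16, 0.39, 0.40 and 0.41 with edgeR TMM, edgeR RLE and DESeq2, 0.01 with limma-voom, 0.01 and 0.07 without normal library 1 or 3, and -0.68 to 0.60 over the libraries left out in turn. CD3D gave 0.01, 0.02 and 0.04 with edgeR TMM, edgeR RLE and DESeq2. CD3G gave -0.01 with the replicate block, -0.06 with the lung covariate and -0.05 to 0.12 with 1 library left out (-0.02 without peripheral library 1). TNFRSF18 gave 0.02 with DESeq2 and -1.69 to 0.21 with 1 library left out, TNFRSF4 -0.11 without peripheral library 3, and APOE -0.34 to 1.15 with 1 library left out (-0.29 without peripheral library 1). Against normal library 3 alone C3 gave 0.15 and BTG2 0.08, and with peripheral libraries 1 and 2 against normal library 3 C3 gave 0.33 and VCAM1 0.42. Depth limits genes under about 20 CPM, FOXP3, IL2RA and IKZF2 among them.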

Other observations

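Of the other gene lists examined, respiratory chain subunits had 17 of 26 tested members above 0 in late peripheral against normal libraries (median 0.25), proliferation genes 13 of 17 (0.25) and glycolysis and hypoxia genes 9 of 13 (0.29), with PKM the single gene called among the 3 lists. Without peripheral library 3, and likewise without normal library 3, 2 respiratory chain genes were called. Endoplasmic reticulum chaperone and secretion genes had 17 of 20 below 0 (median -0.48), TGF-beta genes 13 of 16 (-0.64), inflammatory cytokines and chemokines 13 of 16 (-0.39) and MHC class I genes 8 of 9 (-0.38), and limma, edgeR, DESeq2 and limma-voom called 0 in these 4 lists, with 7, 4, 2 and 3 members at an unadjusted p under 0.05. Without normal library 3 limma called 1 in each of the first, second and last of these lists. Of 17 adhesion genes ITGAD was called and 13 were below 0 (median -0.31). Over all tested genes 2840 (59.3%) were below 0, while 2.25% were called lower and 0.271% higher. CCR3, an eosinophil chemokine receptor, was called lower, at 23.01, 0 and 8.04 CPM in peripheral libraries against 169.0, 151.2, 38.6 and 155.0 in normal libraries (-2.49, adjusted p = 0.01362). GZMB, a cytotoxic granule protease, had 0 reads in the 3 peripheral libraries and 42 in the 4 normal libraries, at least 5.47-fold lower if 3 reads are taken as the floor for the group (adjusted p = 0.04854). Both were chosen after their values were seen.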
